A study of Arabidopsis thaliana with 18 samples.

Results

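WRKY transcription factors were followed through an RNA sequencing study of Arabidopsis roots. The set holds 42 genes of the WRKY family and is not the whole family. Its genes were picked by identifier, at a time when earlier results of these data were known. 41 of the 42 had a row among the 35197 rows of the deposited normalised count table, and all 41 passed the minimum of 5 reads over all libraries that left 23760 rows for testing. WRKY26 (AT5G07100) had no row and is not analysed here. Where a gene had more than 1 row, which was so for 6 members, the row with the highest mean was taken. The samples were roots of seedlings aged 5 days after germination. They came from *lpcat*, the *lpcat1/2* double mutant, which is mutated in both lysophosphatidylcholine acyltransferase genes, or from Col-0 wild type (WT). Each genotype was grown on MS medium with lysoPAF at 20 µg/mL and ONO (50 µM in the sample labels, while the study's text gives this dose in µg/mL), on MS medium with lysoPAF at 20 µg/mL alone, or on MS medium alone (control). The study's methods give the medium of these roots as 1/2 MS. LysoPAF is an alkyl analogue of lysophosphatidylcholine, and ONO blocks phospholipase A2, the enzyme that releases lysophosphatidylcholine from phosphatidylcholine. No sample had ONO without lysoPAF. Each of the 6 groups had 3 libraries, and nothing in the labels says that the replicates were separate cultures, so that p-values measure the spread between these libraries, which may be technical.

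WRKY factors are a large family of plant transcription factors named after a conserved peptide motif in their zinc-finger DNA-binding domain. They bind the W-box, a short DNA element with the core TTGAC, and many are themselves induced within the response to microbes, wounding, salicylic acid and reactive oxygen species. Because many WRKY promoters carry W-boxes, members can act on each other and on themselves. The family is sorted by its domains into group I with a pair of WRKY domains, groups IIa to IIe with a single domain, and group III with a different zinc finger. In roots, members are known for roles in phosphate supply (WRKY6, WRKY42, WRKY45 and WRKY75), auxin-dependent patterning (WRKY23) and defence.

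The promoters of 4 members are shown, picked with the results known, because they differ in the element that the family itself binds. They do not stand for all called members: WRKY6, WRKY31 and WRKY48 had 0 matches and WRKY72 had 1. Whether matches go with the changes described below was not tested. Each is the stretch of 250 bases before the annotated gene start in RefSeq TAIR10.1, written 5′ to 3′ on the strand of the gene, with each TTGACC or TTGACT on either strand in capitals. WRKY30 (AT5G24110, minus strand, chr5:8154711-8154960) had 3 matches, WRKY41 (AT4G11070, plus strand, chr4:6758848-6759097) had 2, WRKY53 (AT4G23810, minus strand, chr4:12393983-12394232) had 2 and WRKY60 (AT2G25000, plus strand, chr2:10629412-10629661) had 0.
WRKY30: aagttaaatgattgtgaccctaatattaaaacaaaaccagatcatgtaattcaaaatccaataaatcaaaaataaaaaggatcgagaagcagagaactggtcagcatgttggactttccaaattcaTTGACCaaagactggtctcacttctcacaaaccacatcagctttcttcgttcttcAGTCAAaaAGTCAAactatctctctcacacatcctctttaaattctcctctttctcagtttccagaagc
WRKY41: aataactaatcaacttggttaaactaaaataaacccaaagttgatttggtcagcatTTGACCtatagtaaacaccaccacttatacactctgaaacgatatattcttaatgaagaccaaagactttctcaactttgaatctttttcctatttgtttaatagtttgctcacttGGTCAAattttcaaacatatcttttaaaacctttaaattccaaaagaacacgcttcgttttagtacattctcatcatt
WRKY53: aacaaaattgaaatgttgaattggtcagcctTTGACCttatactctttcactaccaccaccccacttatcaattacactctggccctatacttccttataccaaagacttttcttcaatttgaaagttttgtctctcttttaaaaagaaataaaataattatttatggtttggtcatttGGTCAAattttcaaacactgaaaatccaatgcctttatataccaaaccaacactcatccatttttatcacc
WRKY60: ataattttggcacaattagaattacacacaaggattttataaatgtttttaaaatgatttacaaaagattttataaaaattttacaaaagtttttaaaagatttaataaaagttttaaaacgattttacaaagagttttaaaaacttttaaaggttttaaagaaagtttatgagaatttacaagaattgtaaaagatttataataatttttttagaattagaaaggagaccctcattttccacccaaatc

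In windows of this length 15 of the 42 members (35.7%) held at least 1 match, against 7797 of 27443 protein-coding genes of the 5 chromosomes (28.4%). 7 members (16.7%) held 2 or more, against 1697 of the protein-coding genes (6.18%): WRKY15, WRKY17, WRKY29, WRKY30, WRKY41, WRKY45 and WRKY53. In WRKY30 the matches began 124, 69 and 61 bases before the gene start. In both WRKY41 and WRKY53, which are close paralogues, 1 match lay far from the gene start (194 and 219 bases) and the other near it (78 and 71 bases). A match is a string of letters in a window and was not measured as a binding site.

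Libraries held 8681898 to 16767002 reads in genes. The LPCAT1 transcript was at 47.3 to 72.1 normalised counts in the 9 *lpcat* libraries and 247 to 342 in the 9 WT libraries, while LPCAT2 was at 435 to 774 in *lpcat* and 186 to 234 in WT. LPCAT1 separated the genotypes as labelled in every library, and LPCAT2, which was higher in *lpcat*, was not used as a check. Summed levels of 6 root markers (COBL9, SCR, SHR, PLT1, CASP1 and EXPA7) lay between 4292 and 4940 normalised counts in the other groups and between 3707 and 4021 in WT control, and those of 5 green shoot markers between 690.1 and 4481. The library labelled *lpcat* control replicate 2 stood apart from the other *lpcat* control libraries: over the 41 members its median absolute log2 difference was 0.19 from the *lpcat* lysoPAF mean, 0.53 from the mean of *lpcat* control replicates 1 and 3, and 0.42 from the WT control mean. 32 of the 41 members lay nearer to *lpcat* lysoPAF in it, and no such count was made over all genes. Its position was not particular to the members. On principal component 1, the main axis of variation among the most variable rows of the whole table, it lay at 32.53. There *lpcat* control replicates 1 and 3 lay at -31.22 and -34.42, and the *lpcat* lysoPAF libraries at 30.86 to 37.65. *lpcat* control replicate 2 also had the lowest green shoot marker sum, 690.1, near that of *lpcat* lysoPAF replicate 2 (815.6). *lpcat* control replicates 1 and 3 (4057 and 4319) and WT control replicate 3 (4481) had the highest, and all other libraries lay at 2657 or below. Fits without *lpcat* control replicate 2 thus keep the *lpcat* libraries with the highest sums. Member counts that rest on the *lpcat* control group are given with and without *lpcat* control replicate 2. Since all groups shared 1 estimate of the spread, so are the member counts of the other comparisons except the ONO step within each genotype. Counts of the further lists are given with all libraries unless stated. Of the root markers, SCR and SHR were called in none of the comparisons and the others in some, as given with each. The part of green tissue or of root cell types in any result was not tested.

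Per kilobase of transcript, WRKY levels in WT control roots ran over 3 orders of magnitude. WRKY65 (group IIe) was highest with 1125 ± 113 normalised counts per kilobase (SD, n = 3), followed by WRKY51 (group IIc) with 811 ± 60.6 and WRKY17 (group IId), a repressor of basal resistance, with 763 ± 53.9. The difference between WRKY51 and WRKY17 was smaller than their SDs. WRKY11, the close paralogue of WRKY17, was at 409.6 ± 16.3 per kilobase. At the low end, WRKY55 (group III) was at 1.34 ± 0.416 and WRKY50 (group IIc) at 0.898 ± 0.886, levels that rest on 0 to 2 reads per library. The group III genes were among the low ones: the highest of the 9, WRKY53, had 30.4 ± 7.28 per kilobase. Over the 18 libraries WRKY55 reached 83.6 per kilobase in the highest and was at 0 in the lowest.

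**Figure D1:**
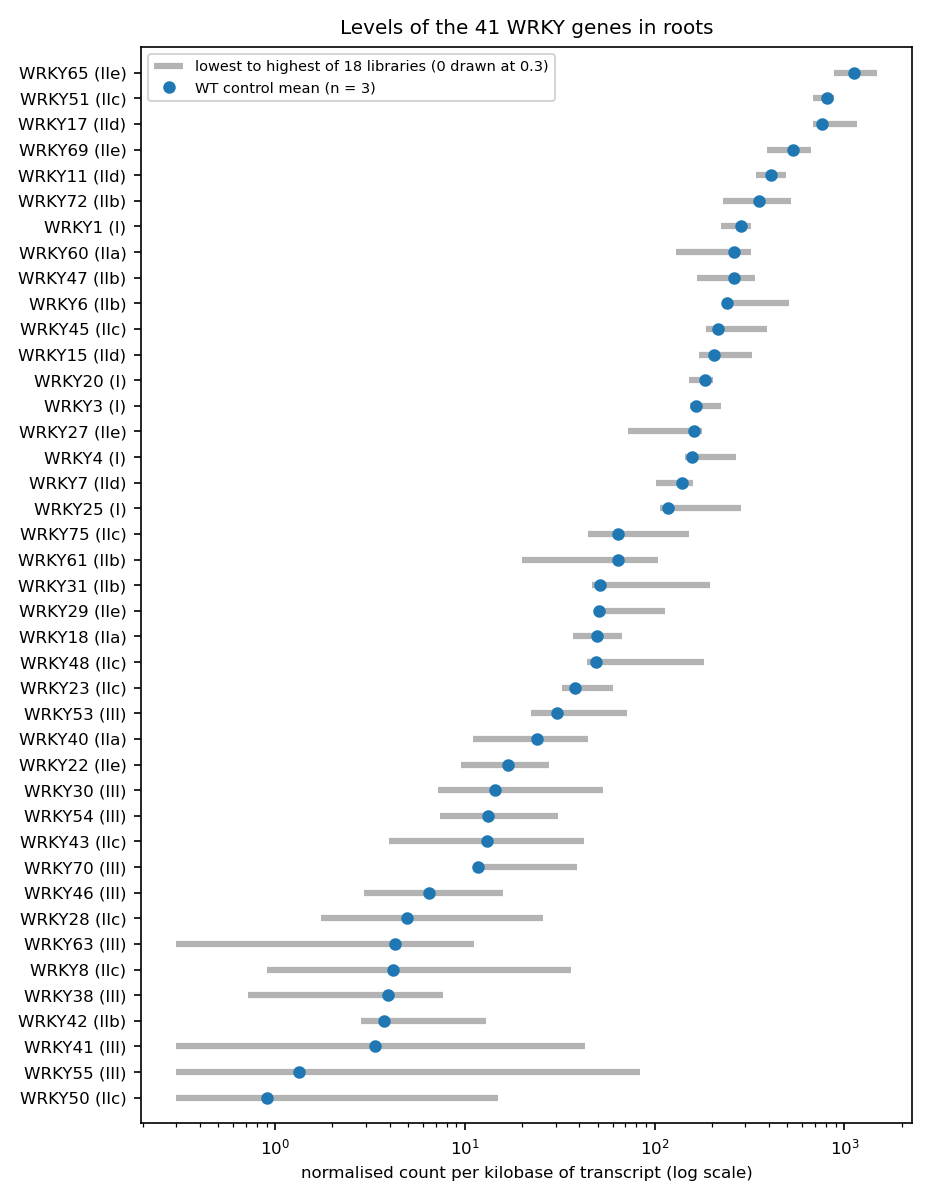
Normalised count per kilobase of transcript (log scale) of the 41 measured WRKY genes, ordered by the WT control mean (points, n = 3), with grey bars from the lowest to the highest of the 18 libraries and the structural group in brackets. WRKY65 is highest at 1125 and WRKY50 lowest at 0.898, and the bars of WRKY55 and WRKY41 reach from 0 to 83.6 and 42.8.

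The first question was whether WRKY transcripts differ between *lpcat* and WT roots under the lipid analogue. On lysoPAF 5 of 41 members were higher in *lpcat*, beside 6.56% of all genes tested, and 5 were lower, beside 4.63% of all genes. Calls here and throughout took a Benjamini-Hochberg adjusted p under 0.05 from limma, with no fold threshold. The median log2 fold change of the members was -0.0055 and that of all genes 0.0028. Of the root markers, COBL9 of root hair cells was higher by 0.39 and PLT1 of the stem cell niche was lower, with a log2 fold change of -0.45. Group IIb, whose 6 members resemble WRKY6, held 2 of the higher and 3 of the lower genes.

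Within group IIb, WRKY61 (AT1G18860), a gene linked to defence against a carmovirus, had 37.8, 38.3 and 46.3 normalised counts in *lpcat* on lysoPAF, against 99.2, 133 and 124 in WT on lysoPAF. Every *lpcat* library was below every WT library, with a log2 fold change of -1.51 ± 0.30 (SE, limma adjusted p = 0.0027), which is 0.35 times the WT level. Another annotated gene overlaps WRKY61 and the strand setting of the counting is not given in the sources used here, so the value of WRKY61 is uncertain in that respect. WRKY72 (AT5G15130), which acts in basal immunity without salicylic acid, had 458, 467 and 504 in *lpcat* and 840.3, 829 and 855 in WT, a log2 fold change of -0.82 ± 0.14 (adjusted p = 0.0012, limma). WRKY47 (AT4G01720) had 414, 339 and 327 in *lpcat* and 486, 649.6 and 540.4 in WT, a log2 fold change of -0.63 ± 0.16 (adjusted p = 0.015, limma). These 3 genes were thus lower in every *lpcat* library. The call of WRKY47 was lost without WT lysoPAF replicate 2 (adjusted p = 0.086), *lpcat* lysoPAF replicate 2 (0.0655) or *lpcat* lysoPAF replicate 3 (0.0734).

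The other called members of group IIb went the other way. WRKY6 (AT1G62300), a regulator of phosphate export to the shoot and of senescence, had 1032, 1181 and 1189 normalised counts in *lpcat* on lysoPAF, against 797, 834 and 762 in WT, a log2 fold change of 0.50 ± 0.09 (adjusted p = 0.00093, limma). WRKY31 (AT4G22070) had 227, 239 and 250.3 in *lpcat* and 145, 165 and 162 in WT, a log2 fold change of 0.60 ± 0.11 (adjusted p = 0.0016, limma). For both, the groups did not overlap, and the calls held without any 1 library, here and below of those compared. WRKY42 (AT4G04450), which like WRKY6 represses the phosphate exporter gene PHO1, had 14.9, 14.1 and 17 in *lpcat* and 13.4, 16.1 and 16.8 in WT, with overlapping groups and a log2 difference of -0.01 (95% interval -0.67 to 0.65).

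In group IIa, 3 paralogues that act together as repressors of basal defence and of abscisic acid responses, the members did not share a direction. WRKY60 (AT2G25000) had 240.0, 216 and 192 normalised counts in *lpcat* on lysoPAF, against 479, 471 and 405 in WT. Its log2 fold change of -1.06 ± 0.12 had the smallest adjusted p of the members in this comparison (limma, 1.7e-05), and the *lpcat* level was 0.479 times that of WT. WRKY18 had 105, 99.7 and 117 in *lpcat* and 84.0, 80.4 and 89.4 in WT, above WT in every library but not called (log2 difference 0.34, 95% interval 0.07 to 0.60). WRKY40 had 43.9, 35.2 and 30.2 in *lpcat* and 17.6, 19.9 and 22.1 in WT, again without overlap and without a call (log2 difference 0.83, limma adjusted p = 0.085).

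Outside groups IIa and IIb, 4 more members were called. WRKY30 (AT5G24110), a group III gene that responds to reactive oxygen species and whose promoter with 3 matches is shown above, had 36.9, 52.4 and 43.4 normalised counts in *lpcat* on lysoPAF, against 15.1, 11.3 and 13.7 in WT. It was higher in every *lpcat* library, 3.13 times the WT level on the log2(value + 1) scale, with a log2 fold change of 1.65 ± 0.39 (adjusted p = 0.0092, limma). WRKY48 (AT5G49520), a stress-induced repressor of basal defence, had 221, 229 and 283 in *lpcat* and 123, 147 and 159.8 in WT, a log2 fold change of 0.77 ± 0.18 (adjusted p = 0.01, limma). Its call was lost without WT lysoPAF replicate 1 (adjusted p = 0.0599) or *lpcat* lysoPAF replicate 3 (0.0634).

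WRKY27 (AT5G52830), a gene of susceptibility to bacterial wilt in group IIe, had 149, 151 and 114 normalised counts in *lpcat* on lysoPAF, against 241, 281 and 259 in WT, a log2 fold change of -0.92 ± 0.16 (adjusted p = 0.001, limma). Its paralogues WRKY22 and WRKY29, which act downstream of flagellin perception, were not called: their log2 differences were 0.33 (95% interval -0.22 to 0.88) and -0.11 (-0.43 to 0.20). WRKY25 (AT2G30250), a group I factor of heat and oxidative stress, had 374, 501 and 505 in *lpcat* and 297, 294 and 273 in WT, a log2 fold change of 0.66 ± 0.18 (adjusted p = 0.023, limma). It was higher in every *lpcat* library, but the call was lost without any 1 of the 6 libraries compared except *lpcat* lysoPAF replicate 1, with adjusted p of 0.0579 to 0.102.

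When *lpcat* control replicate 2 was left out, which is in neither group here but enters the shared spread, 9 members were higher, beside 9.34% of all genes in that fit, and 9 lower, beside 7.66%. The members added included WRKY55, WRKY8 and WRKY50, low genes with a wide spread in the *lpcat* control group. WRKY55 (AT2G40740), a promoter of senescence and salicylic acid accumulation, had 42.2, 70.5 and 93.5 normalised counts in *lpcat* on lysoPAF, against 10.9, 6.62 and 11.6 in WT, a log2 fold change of 2.67 that was not called with all libraries (adjusted p = 0.063, limma) and was called without that library (1.8e-05). WRKY8 had 36.0, 43.3 and 38.7 in *lpcat* and 10.1, 17.96 and 9.46 in WT, with an adjusted p of 0.12 with all libraries and 0.0077 without that library. In both genes each *lpcat* library was above each WT library.

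**Figure D2:**
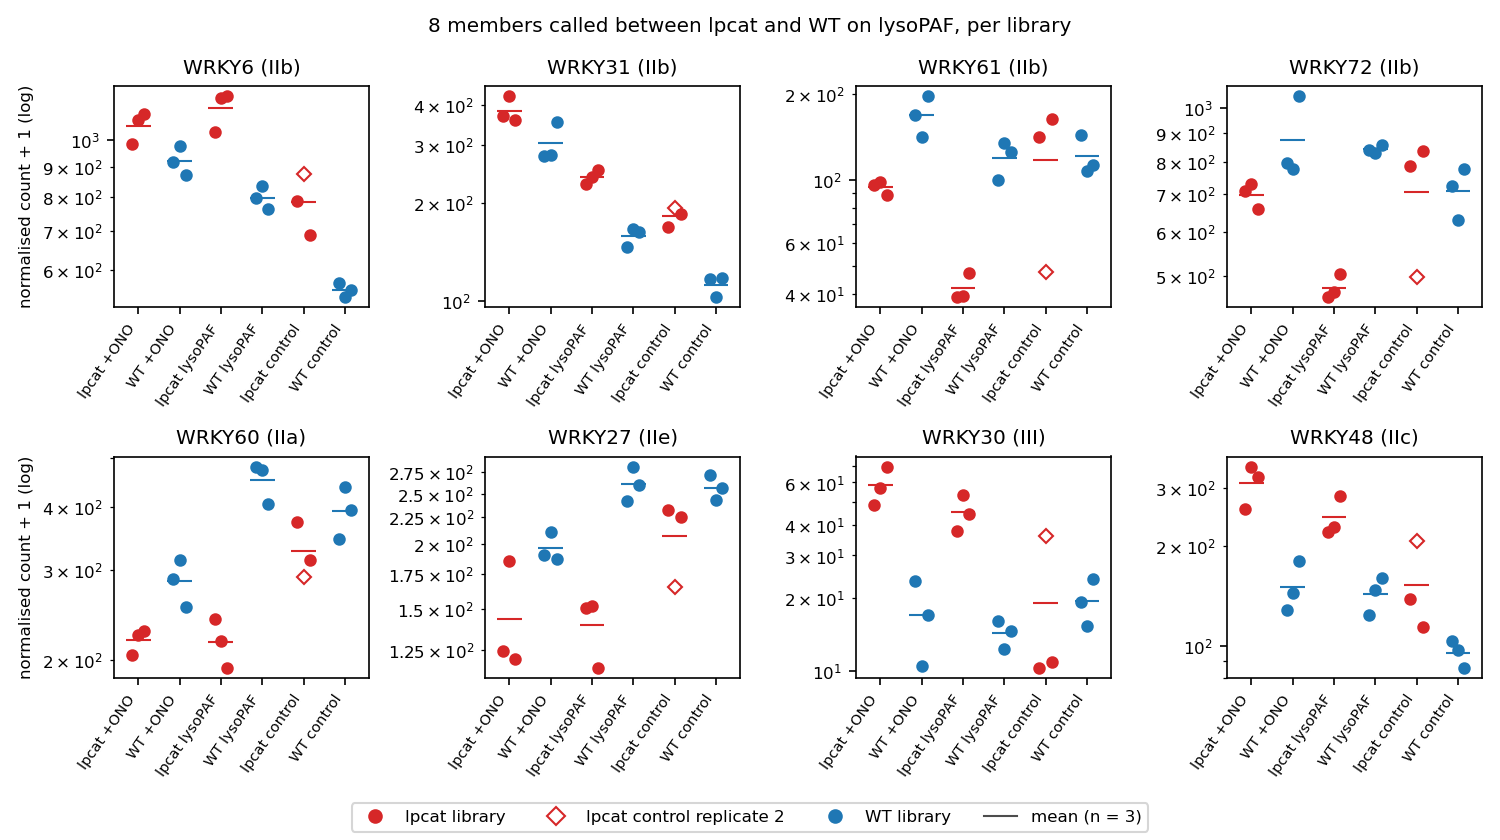
Normalised count + 1 (log axis, 1 panel per gene) in each library for 8 members called between *lpcat* (red) and WT (blue) on lysoPAF. Lines mark the means of 3 libraries, and the open diamond is *lpcat* control replicate 2. In the lysoPAF groups WRKY61, WRKY72, WRKY60 and WRKY27 are lower in all *lpcat* libraries and WRKY6, WRKY31, WRKY30 and WRKY48 higher.

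With ONO added to lysoPAF, 3 of 41 members were higher in *lpcat* than in WT, beside 2.13% of all genes, and 0 were lower, beside 1.14%. At an unadjusted p under 0.05, 21 members differed in either direction. Here and below, no share over all genes was counted at an unadjusted p, so these numbers have no background beside them. The member median was 0.22 on the log2 scale and the median of all genes 0.01. WRKY30 had 47.5, 56.1 and 68.8 normalised counts in *lpcat* on lysoPAF with ONO, against 22.5, 9.48 and 16.0 in WT, a log2 fold change of 1.84 ± 0.39 (adjusted p = 0.013, limma). WRKY48 had 258, 348 and 324 in *lpcat* and 127, 143 and 179.9 in WT, a log2 fold change of 1.04 ± 0.18 (adjusted p = 0.0034, limma). Both genes were higher in every *lpcat* library, as they were on lysoPAF alone.

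WRKY40 (AT1G80840), a repressor of immune responses that is itself rapidly induced by elicitors, had 37.7, 58.9 and 55.04 normalised counts in *lpcat* on lysoPAF with ONO, against 25.3, 19.0 and 19.5 in WT, a log2 fold change of 1.20 ± 0.30 (adjusted p = 0.035, limma). The call of WRKY48 held without any 1 library. That of WRKY40 was lost without any 1 of the 6 libraries compared except *lpcat* lysoPAF+ONO replicate 1 (adjusted p of 0.0709 to 0.167), and that of WRKY30 without WT lysoPAF+ONO replicate 2 (0.0793), *lpcat* lysoPAF+ONO replicate 2 (0.0619) or *lpcat* lysoPAF+ONO replicate 3 (0.0542). The paralogues of WRKY40 were not called: WRKY18 had a log2 difference of 0.47 (95% interval 0.20 to 0.73) and WRKY60 of -0.38 (-0.61 to -0.15). Leaving out *lpcat* control replicate 2, which again enters only the spread, gave 11 higher members, beside 4.71% of all genes in that fit, and 6 lower, beside 3.98%, WRKY55 (log2 difference 2.58) and WRKY61 (-0.83) among them.

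On control medium 4 of 41 members were higher in *lpcat*, beside 2.24% of all genes, and 0 lower, beside 0.53%. At an unadjusted p under 0.05 the number was 11 in either direction, and on the recovered reads DESeq2 called 7 higher and 0 lower (4.38% and 0.831% of all genes with an adjusted p) and edgeR 4 and 0 (2.43% and 0.543%). The root markers COBL9 (0.67), CASP1 of the endodermis (0.57) and EXPA7 of root hairs (0.48) were also higher in *lpcat* control roots on the log2 scale. WRKY31 had 168, 192 and 184 normalised counts in *lpcat* control roots and 116, 102 and 117 in WT control roots, a log2 fold change of 0.70 ± 0.11 (adjusted p = 0.0012, limma). WRKY6 had 788, 875 and 688 in *lpcat* and 571, 539 and 555 in WT, a log2 fold change of 0.49 ± 0.09 (adjusted p = 0.003, limma). Both group IIb genes were thus higher in every *lpcat* library without any lipid added.

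WRKY4 (AT1G13960), which with its paralogue WRKY3 acts against necrotrophic fungi, had 520.2, 500.3 and 450.4 normalised counts in *lpcat* control roots and 369, 367 and 326 in WT control roots, a log2 fold change of 0.47 ± 0.08 (adjusted p = 0.003, limma). WRKY3 had 431, 363 and 414 in *lpcat* and 336, 359 and 392 in WT and was not called. WRKY70 (AT3G56400), which stands between salicylic acid and jasmonate signalling, had 37.3, 28.5 and 46.04 in *lpcat* and 16.6, 17.3 and 17.96 in WT, a log2 fold change of 1.04 ± 0.24 (adjusted p = 0.025, limma). Its call was lost without any 1 of the 6 libraries except *lpcat* control replicate 2, with adjusted p of 0.0566 to 0.0818. Without *lpcat* control replicate 2 all 4 were still called (WRKY31 0.66, WRKY6 0.41, WRKY4 0.45 and WRKY70 1.22 on the log2 scale), with WRKY17 (0.53) and WRKY42 (1.19) besides, beside 4.61% of all genes higher and 2.45% lower in that fit. COBL9, CASP1 and EXPA7 were then higher by 0.74, 0.57 and 0.59. Fitted on the control libraries alone, 0 members were called, in a fit for which no share over all genes was counted.

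**Figure D3:**
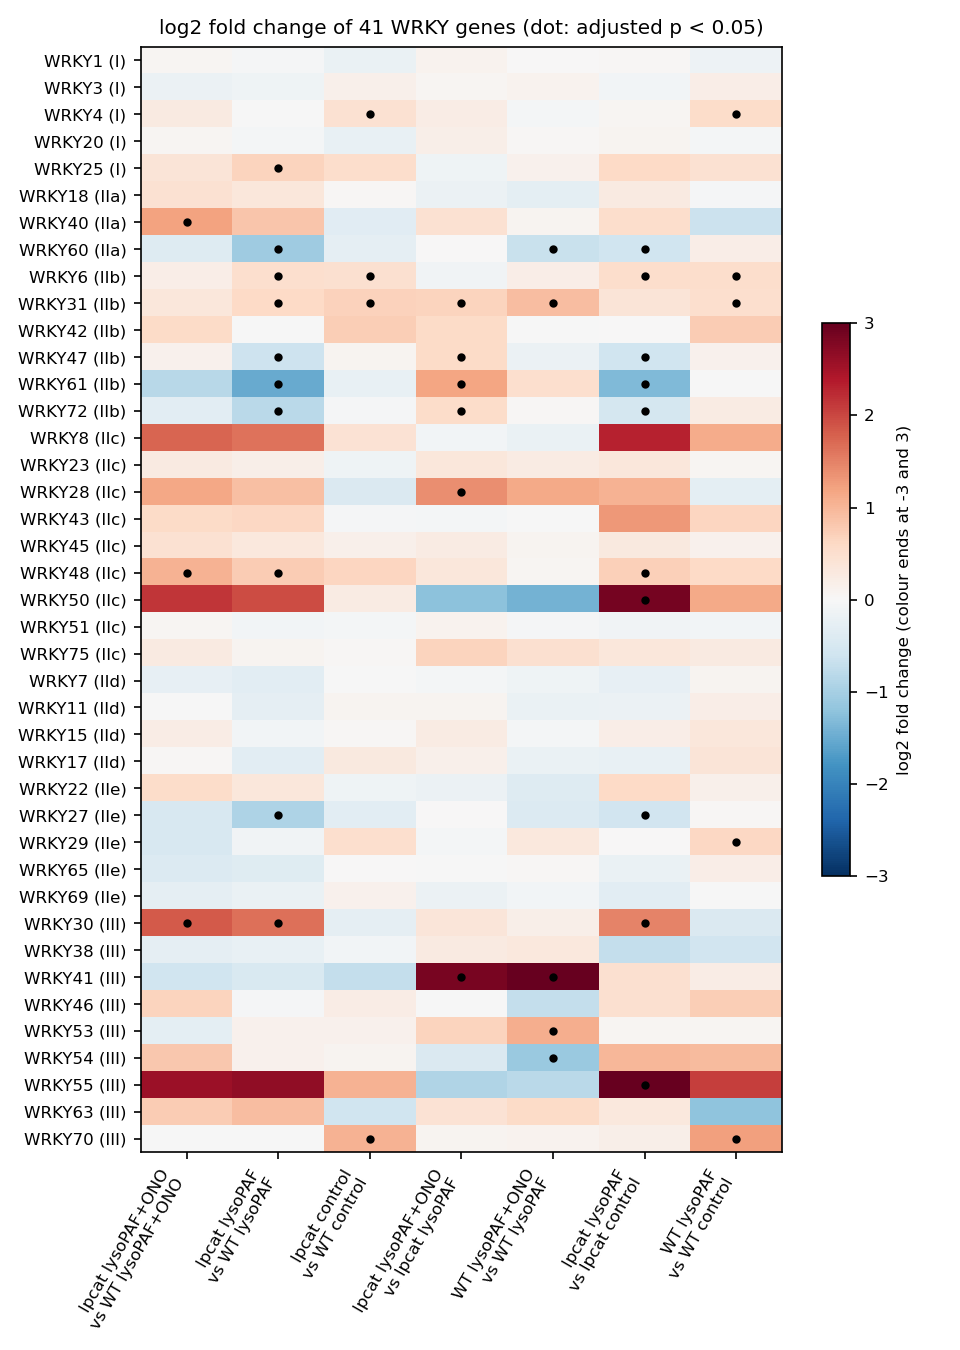
Log2 fold changes of the 41 members, by structural group, in 7 comparisons (columns), red for higher and blue for lower in the group named first, with a dot where limma's adjusted p was under 0.05. Group IIb shows 2 higher and 3 lower dots for *lpcat* lysoPAF over WT lysoPAF, and WRKY41 is deep red in both ONO columns.

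The lysoPAF step itself was then taken within each genotype. In *lpcat*, 5 of 41 members were higher on lysoPAF than on control medium, beside 1.94% of all genes, and 5 lower, beside 1.57%. The higher ones were WRKY6, WRKY48, WRKY30, WRKY50 and WRKY55 and the lower ones WRKY60, WRKY61, WRKY72, WRKY47 and WRKY27. This comparison shares its lysoPAF libraries with the comparison of *lpcat* and WT on lysoPAF, so the 2 sets of calls are not independent. The *lpcat* control libraries did not hold together. WRKY55 had 42.2, 70.5 and 93.5 normalised counts on lysoPAF, against 1.04, 62.7 and 0 on control medium, where replicate 2 held 66 reads and the others 1 and 0.

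The other low members divided the control libraries in the same manner. WRKY50 (AT5G26170), which represses jasmonate signalling, had 12.3, 15.1 and 16.1 normalised counts in *lpcat* on lysoPAF, against 0, 8.54 and 0 on control medium. WRKY8 (AT5G46350), a negative regulator of bacterial defence, had 36.0, 43.3 and 38.7 on lysoPAF, against 5.18, 37.0 and 1.24 on control medium. WRKY30 had 36.9, 52.4 and 43.4 on lysoPAF, against 9.33, 35.1 and 9.95 on control medium. In each of these genes *lpcat* control replicate 2 was near the lysoPAF level and the other control libraries were far below it.

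With all libraries the log2 fold changes were 3.71 ± 0.91 for WRKY55 (adjusted p = 0.032, limma), 2.86 ± 0.70 for WRKY50 (0.032), 2.32 ± 0.66 for WRKY8 (0.056) and 1.49 ± 0.39 for WRKY30 (0.04). The sizes for WRKY55 and WRKY50 depend on the pseudocount of 1, since *lpcat* control replicates 1 and 3 were at or near 0. The calls of WRKY55 and WRKY50 were absent in edgeR (adjusted p of 0.175 and 0.118) and DESeq2 (0.436 and 0.138). WRKY61 had 37.8, 38.3 and 46.3 on lysoPAF, against 141, 46.5 and 163 on control medium, a log2 fold change of -1.31 ± 0.30 (adjusted p = 0.026, limma). WRKY60 had 240.0, 216 and 192 on lysoPAF and 373, 290.5 and 314 on control medium, a log2 fold change of -0.59 ± 0.12 (adjusted p = 0.017, limma), and WRKY6 had 1032, 1181 and 1189 against 788, 875 and 688, a log2 fold change of 0.54 ± 0.09 (adjusted p = 0.0079, limma).

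Without *lpcat* control replicate 2, 13 members were higher in *lpcat* on lysoPAF, beside 8.86% of all genes in that fit, and 10 lower, beside 9.8%. The log2 differences were then 5.54 for WRKY55 (adjusted p = 1e-09, limma), 3.43 for WRKY8 (7e-06), 2.08 for WRKY30 (3.9e-05), 2.04 for WRKY43 (0.00052) and -1.88 for WRKY61 (1.9e-08). Group IId, which held no call with all libraries, had WRKY17 (-0.45), WRKY7 (-0.39) and WRKY11 (-0.34) called lower. Without *lpcat* control replicate 1 or 3 instead, leaving replicate 2 with 1 other, 0 of the 10 calls remained in either case, and the adjusted p of the 10 ran up to 0.3. Each of the 10 calls was also lost without *lpcat* lysoPAF replicate 2 or replicate 3 (adjusted p of 0.0517 to 0.212). Without *lpcat* lysoPAF replicate 1 those of WRKY6 and WRKY60 held and the other 8 were lost, and all 10 held without *lpcat* control replicate 2.

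**Figure D4:**
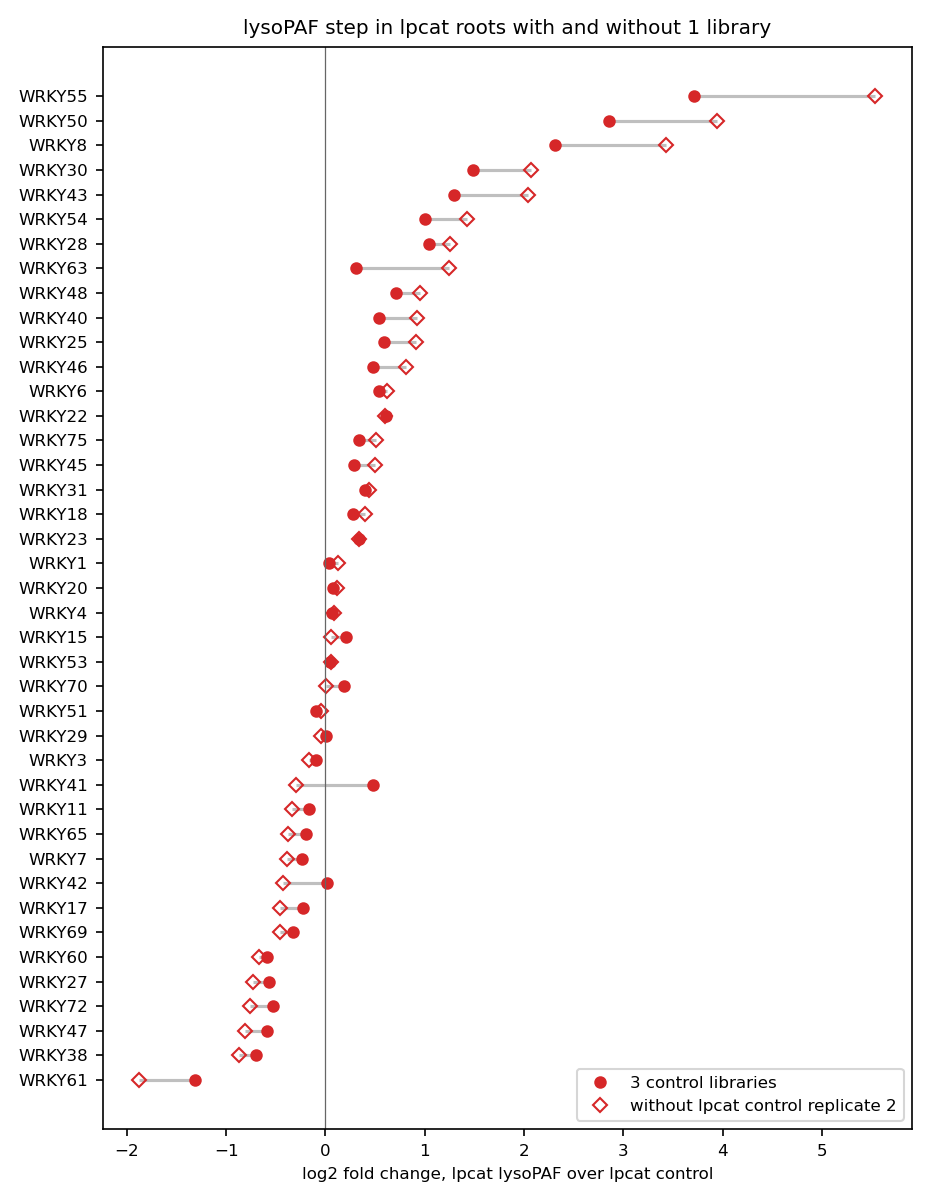
Log2 fold change of each of the 41 members between *lpcat* roots on lysoPAF and *lpcat* roots on control medium (horizontal axis), with 3 control libraries (filled circles) and without *lpcat* control replicate 2 (open diamonds). The shift is large for WRKY55, with 3.71 and 5.54, and for WRKY61, with -1.31 and -1.88.

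In WT, 5 of 41 members were higher on lysoPAF than on control medium, beside 1.58% of all genes, and 0 lower, beside 0.901%. At an unadjusted p under 0.05 the number in either direction was 14, and edgeR called 5 higher and 0 lower (1.65% and 0.711% of all genes) and DESeq2 6 and 0 (3.34% and 1.88% of all genes with an adjusted p). Of the root markers, CASP1 was higher by 0.55. The member median was 0.20 on the log2 scale and that of all genes -0.01. WRKY4 had 524, 544 and 480.5 normalised counts on lysoPAF, against 369, 367 and 326 on control medium, a log2 fold change of 0.54 ± 0.08 (adjusted p = 0.0023, limma). WRKY6 had 797, 834 and 762 on lysoPAF and 571, 539 and 555 on control medium, a log2 fold change of 0.52 ± 0.09 (adjusted p = 0.0038, limma). Both were higher in every lysoPAF library and kept their calls without any 1 library.

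WRKY70 had 53.8, 34.0 and 39.95 normalised counts in WT on lysoPAF, against 16.6, 17.3 and 17.96 on control medium, a log2 fold change of 1.23 ± 0.24 (adjusted p = 0.012, limma). In *lpcat*, WRKY70 was at 39.6, 37.3 and 49.1 on lysoPAF and at 37.3, 28.5 and 46.04 on control medium, with overlapping groups. WT control was thus the low group for this gene, and the other groups lay at 28.5 or above. WRKY31 (log2 fold change 0.50 ± 0.11, limma adjusted p = 0.021) and WRKY29 (0.62 ± 0.16, limma adjusted p = 0.044) were the other calls. WRKY29 lost its call without any 1 of the 6 libraries (adjusted p of 0.0548 to 0.177), WRKY31 without WT control replicate 2 (0.0978) or 3 (0.0517) or WT lysoPAF replicate 2 (0.0859) or 3 (0.0831), and WRKY70 without WT lysoPAF replicate 1 (0.0786). Leaving out *lpcat* control replicate 2 gave 11 higher, beside 4.05% of all genes in that fit, and 0 lower, beside 2.79%.

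Whether the lysoPAF step differed between *lpcat* and WT was tested as an interaction, which called 0 of 41 members, beside 0.0547% of all genes in either direction. At an unadjusted p under 0.05 it gave 15 members, edgeR called 0 (0.105% of all genes) and DESeq2 called 0 higher and 5 lower (0.893% of all genes with an adjusted p, in either direction). WRKY60 had the smallest adjusted p of the members, with a difference of -0.80 ± 0.17 on the log2 scale (adjusted p = 0.07, limma). Without *lpcat* control replicate 2, 5 members were called positive (WRKY55, WRKY30, WRKY40, WRKY8 and WRKY50), beside 4.11% of all genes in that fit, and 11 negative, beside 5.38%, WRKY61 (-1.86), WRKY17 (-0.85) and WRKY72 (-1.02) with the smallest adjusted p among the negative ones. These calls thus rest on which *lpcat* control libraries enter.

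The next question was what the phospholipase inhibitor adds to lysoPAF. In *lpcat*, 6 of 41 members were higher on lysoPAF with ONO than on lysoPAF alone, beside 3.55% of all genes, and 0 lower, beside 2.51%. At an unadjusted p under 0.05, 11 members differed in either direction, and edgeR (3.75% and 2.88% of all genes higher and lower) and DESeq2 (4.96% and 4.1%) each called 6 higher and 0 lower. In WT, 3 were higher, beside 3.72% of all genes, and 2 lower, beside 1.77%. The root marker PLT1 was higher with ONO by 0.45 in *lpcat* and 0.39 in WT, COBL9 was higher by 0.42 in WT, and CASP1 was lower in *lpcat* with a log2 fold change of -0.33. The member medians were 0.10 in *lpcat* and 0.03 in WT on the log2 scale, and those of all genes 0.01 and 0.00.

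WRKY41 (AT4G11070) had the largest change of the called members in both genotypes. This group III gene has roles in seed dormancy and in resistance to bacteria. In *lpcat* it had 21.3, 39.3 and 27.5 normalised counts on lysoPAF with ONO, against 3.52, 3.02 and 2.83 on lysoPAF, a log2 fold change of 2.84 ± 0.56 (adjusted p = 0.0051, limma). In WT it had 44.99, 36.9 and 50.4 with ONO, against 5.04, 3.78 and 5.26 without, a log2 fold change of 2.98 ± 0.56 (adjusted p = 0.0029, limma). The ONO groups stood clear of every other group, and the calls held without any 1 library. An annotated gene overlaps WRKY41 in TAIR10.1, so that reads of both could not be told apart if strand was ignored.

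WRKY53 (AT4G23810), the paralogue of WRKY41 and an early regulator of leaf senescence, had 56.6, 100.1 and 100.2 normalised counts in *lpcat* on lysoPAF with ONO, against 47.5, 56.4 and 51 on lysoPAF, which was not called (log2 difference 0.68, 95% interval 0.18 to 1.17). In WT it had 90.0, 106 and 108 with ONO, against 46.2, 42.5 and 51.5 without, a log2 fold change of 1.10 ± 0.25 (adjusted p = 0.013, limma). The WT call was lost without WT lysoPAF replicate 1 (adjusted p = 0.0535) or 2 (0.0584) or WT lysoPAF+ONO replicate 2 (0.0555). The difference between genotypes in this step was -0.42 (95% interval -1.13 to 0.28) and was not called.

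WRKY31 was called in both genotypes as well. It had 367, 424 and 357 normalised counts in *lpcat* on lysoPAF with ONO, against 227, 239 and 250.3 on lysoPAF, a log2 fold change of 0.68 ± 0.11 (adjusted p = 0.0012, limma). In WT it had 277, 280.2 and 353 with ONO, against 145, 165 and 162 without, a log2 fold change of 0.93 ± 0.11 (adjusted p = 1.8e-05, limma). Every ONO library was above every lysoPAF library in both genotypes, and neither call was lost without any 1 library.

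The 3 group IIb genes that were lower in *lpcat* on lysoPAF were higher again in *lpcat* with ONO, although this comparison shares the *lpcat* lysoPAF libraries with that one. WRKY61 had 94.9, 97.3 and 87.5 normalised counts with ONO, against 37.8, 38.3 and 46.3 on lysoPAF, a log2 fold change of 1.18 ± 0.30 (adjusted p = 0.024, limma). WRKY72 had 709, 729 and 657 against 458, 467 and 504, a log2 fold change of 0.55 ± 0.14 (adjusted p = 0.028, limma), and WRKY47 had 594, 558 and 461 against 414, 339 and 327, a log2 fold change of 0.58 ± 0.16 (adjusted p = 0.038, limma). In WT the same step gave 0.49 (95% interval -0.09 to 1.08) for WRKY61, 0.04 (-0.24 to 0.32) for WRKY72 and -0.17 (-0.49 to 0.14) for WRKY47, none of them called. In *lpcat*, WRKY61 lost its call without any 1 of the 6 libraries (adjusted p of 0.0517 to 0.091). WRKY72 lost it without any except *lpcat* lysoPAF+ONO replicate 3 (0.0622 to 0.112), and WRKY47 without *lpcat* lysoPAF replicate 2 (0.13) or 3 (0.148) or *lpcat* lysoPAF+ONO replicate 1 (0.147) or 2 (0.134).

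WRKY28 (AT4G18170), an activator of the salicylic acid synthesis gene ICS1, had 26.8, 27.1 and 37.3 normalised counts in *lpcat* on lysoPAF with ONO, against 12.3, 7.05 and 14.2 on lysoPAF, a log2 fold change of 1.40 ± 0.39 (adjusted p = 0.036, limma). This call was lost without any 1 of the 6 libraries, with adjusted p of 0.0587 to 0.169. In WT it had 12.2, 13.7 and 12.6 with ONO, against 2.52, 6.62 and 8.41 without, which was not called (log2 difference 1.13, limma adjusted p = 0.1). All ONO libraries were above the lysoPAF libraries of the same genotype.

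The 2 members that were lower with ONO were both in WT. WRKY60 had 288, 313 and 253 normalised counts in WT on lysoPAF with ONO, against 479, 471 and 405 on lysoPAF, a log2 fold change of -0.67 ± 0.12 (adjusted p = 0.0016, limma) that held without any 1 library. In *lpcat* it had 203, 223 and 227 with ONO, against 240.0, 216 and 192 without, a log2 difference of 0.01 (95% interval -0.22 to 0.25). The interaction of genotype with the ONO step called WRKY60 alone among the 41 members, beside 1.26% of all genes in either direction, with a signed difference of 0.68 ± 0.17 (*lpcat* minus WT, adjusted p = 0.049, limma). The ONO step of WRKY60 was thus a decrease in WT and was near 0 in *lpcat*. The root marker COBL9 also differed in its ONO step, with an interaction of -0.55. For WRKY60, WT on lysoPAF alone was the group with the highest mean, and *lpcat* was below WT in both lysoPAF media.

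The interaction call of WRKY60 lay close to the threshold. It was lost without any 1 of the 12 libraries compared except *lpcat* lysoPAF replicate 1, with adjusted p of 0.0564 to 0.141. The interaction called 4 members without *lpcat* control replicate 2, which enters only the spread, WRKY47 (0.75), WRKY72 (0.51) and WRKY17 (0.35) besides WRKY60, beside 4.96% of all genes in either direction in that fit. The ONO steps in *lpcat* and WT behind these signed differences were 0.58 and -0.17 for WRKY47, 0.55 and 0.04 for WRKY72, and 0.16 and -0.19 for WRKY17.

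WRKY54 (AT2G40750), which with WRKY70 restrains senescence and salicylic acid synthesis, had 24.4, 10.5 and 18.3 normalised counts in WT on lysoPAF with ONO, against 37.8, 35.9 and 38.9 on lysoPAF, a log2 fold change of -1.11 ± 0.31 (adjusted p = 0.041, limma). The call was lost without any 1 of the 6 libraries except WT lysoPAF+ONO replicate 1, with adjusted p of 0.0745 to 0.195. In *lpcat* it had 29.8, 29.9 and 31.4 with ONO, against 43.9, 36.2 and 44.4 without, which was not called (log2 difference -0.43, 95% interval -1.04 to 0.18). WRKY54 and WRKY55 are neighbours on chromosome 2, with facing 3′ ends 919 bases apart in TAIR10.1. WRKY54 had its highest values in the lysoPAF groups and in *lpcat* control replicate 2, at 35.9 to 44.4, and lay at 31.4 or below elsewhere. The third paralogue, WRKY46, which acts with WRKY54 and WRKY70 in drought and brassinosteroid responses, lay between 3.99 and 21.5 normalised counts in the 18 libraries and was called in none of the comparisons.

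**Figure D5:**
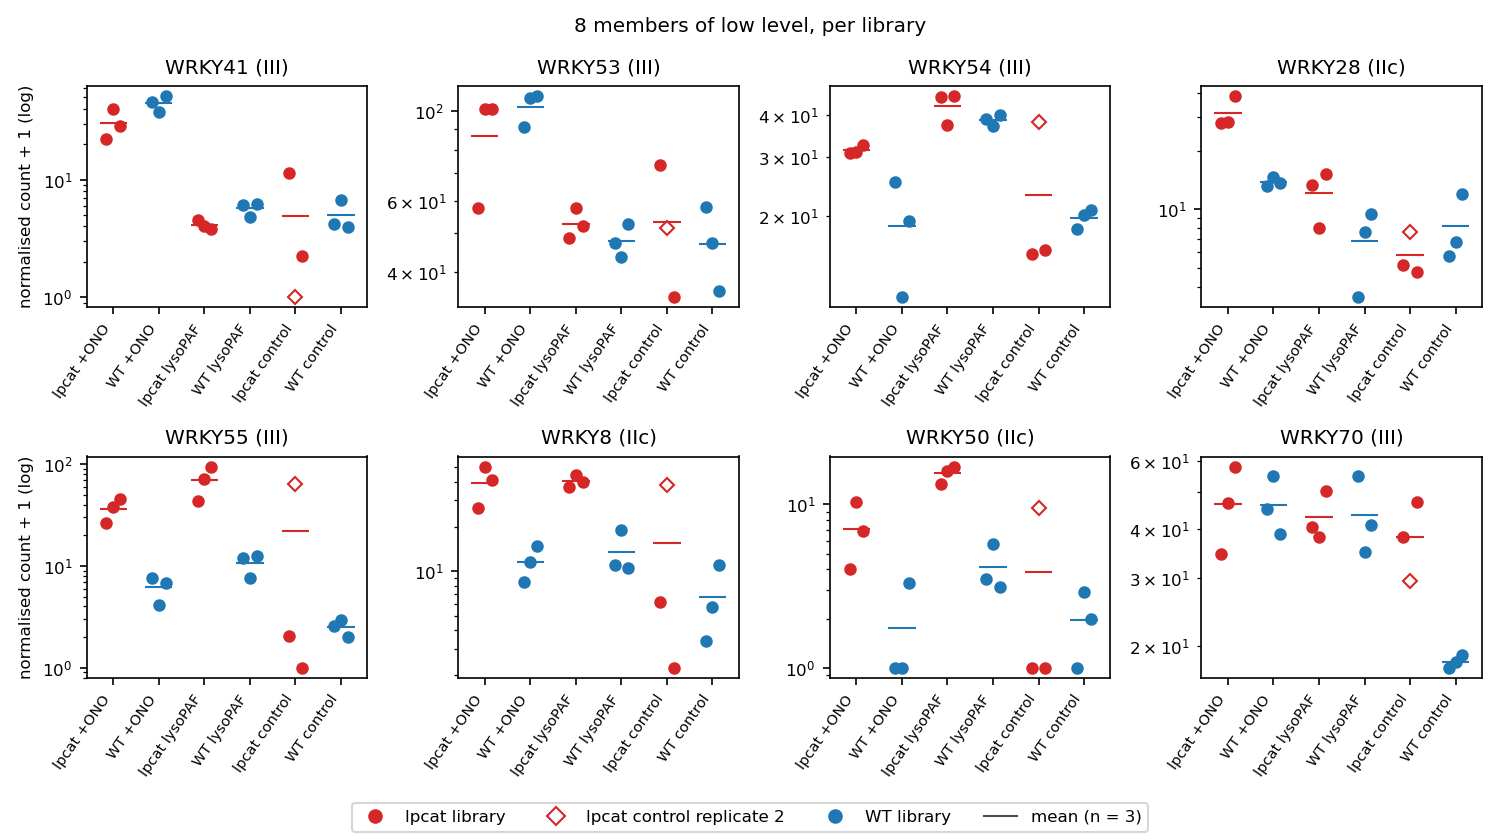
Normalised count + 1 (log axis, 1 panel per gene) in each library for 8 members of low level, *lpcat* in red and WT in blue, with lines at the means of 3 libraries and an open diamond for *lpcat* control replicate 2. WRKY41 lies at 21.3 to 50.4 in the ONO groups and at 10.4 or below elsewhere, and for WRKY55, WRKY8 and WRKY50 the diamond is far above the other *lpcat* control points.

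Against control medium, lysoPAF with ONO gave the largest number of member calls. In *lpcat*, 12 of 41 members were higher, beside 4.39% of all genes, and 3 lower, beside 2.67%. In WT, 10 were higher, beside 6.4% of all genes, and 1 lower, beside 3.35%. The member medians were 0.44 in *lpcat* and 0.22 in WT on the log2 scale, against 0.01 and -0.01 over all genes. Group IIc held 6 of the 12 higher members in *lpcat*. In WT the root markers COBL9 (0.66), EXPA7 (0.57), PLT1 (0.36) and CASP1 (0.34) were higher too, while in *lpcat* 0 of the 6 were called in limma, edgeR or DESeq2, with 3 at an unadjusted p under 0.05.

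In *lpcat*, WRKY28 had 26.8, 27.1 and 37.3 normalised counts on lysoPAF with ONO, against 4.15, 6.65 and 3.73 on control medium, a log2 fold change of 2.44 ± 0.39 (adjusted p = 0.00051, limma). WRKY41 rose by 3.32 ± 0.56 (0.00092), WRKY31 by 1.07 ± 0.11 (4.8e-06), WRKY48 by 1.05 ± 0.18 (0.0012), WRKY6 by 0.44 ± 0.09 (0.0032) and WRKY30 by 1.85 ± 0.39 (0.0053) on the log2 scale, with limma adjusted p in brackets. The lower members were WRKY69 (-0.49 ± 0.10), WRKY60 (-0.57 ± 0.12) and WRKY27 (-0.55 ± 0.16). WRKY23 (AT2G47260), an auxin-induced gene of root patterning, had 101.04, 115 and 106 with ONO, against 71.5, 65.5 and 62.2 on control medium, a log2 fold change of 0.69 ± 0.15 (adjusted p = 0.0087, limma). The phosphate-linked paralogues WRKY75 (1.00 ± 0.27) and WRKY45 (0.52 ± 0.15) were both higher, with WRKY15 (0.46 ± 0.12), WRKY4 (0.29 ± 0.08) and WRKY8 (2.24 ± 0.66).

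Of these 15, the calls of WRKY31, WRKY28, WRKY41, WRKY48, WRKY6, WRKY69, WRKY60 and WRKY30 held without any 1 library. The call of WRKY23 was lost without *lpcat* lysoPAF+ONO replicate 2 (adjusted p = 0.0535). Those of WRKY15, WRKY75, WRKY45, WRKY4, WRKY27 and WRKY8 were lost in 4 or 5 of 6 fits, with adjusted p up to 0.121, 0.158, 0.18, 0.185, 0.165 and 0.248. Without *lpcat* control replicate 2, 17 members were higher in *lpcat*, beside 8.12% of all genes in that fit, and 8 lower, beside 7.44%. WRKY15 was then no longer called (adjusted p = 0.0618), the log2 difference of WRKY41 fell to 2.54 and those of WRKY8 and WRKY55 were 3.36 and 4.64.

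In WT, WRKY31 had 277, 280.2 and 353 normalised counts on lysoPAF with ONO, against 116, 102 and 117 on control medium, a log2 fold change of 1.43 ± 0.11 (adjusted p = 6.5e-08, limma). WRKY29, a factor downstream of flagellin perception, had 113, 146 and 157 with ONO, against 72.8, 70 and 70.8 on control medium, a log2 fold change of 0.94 ± 0.16 (adjusted p = 6e-04, limma). WRKY6 rose by 0.73 ± 0.09, WRKY4 by 0.48 ± 0.08, WRKY41 by 3.21 ± 0.56, WRKY70 by 1.32 ± 0.24 and WRKY53 by 1.15 ± 0.25 on the log2 scale, and these calls held without any 1 library. WRKY48 (0.66 ± 0.18), WRKY25 (0.59 ± 0.18) and WRKY3 (0.30 ± 0.09) were higher and WRKY60 (-0.46 ± 0.12) lower, with calls lost in 3 to 5 of 6 fits that left 1 library out (adjusted p up to 0.125, 0.155, 0.181 and 0.0985). In WT, 14 members were called higher once *lpcat* control replicate 2 was left out, beside 9.44% of all genes, and 1 lower, beside 6.06%. WRKY41 and WRKY53 were thus both higher in WT with ONO against either medium, in comparisons that share the ONO libraries.

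Over the 11 comparisons, 70 member calls fell on 27 members, and 14 of the 41 were called in none. The 14 were WRKY1 and WRKY20 of group I, WRKY18 of group IIa, WRKY42 of group IIb, WRKY43 and WRKY51 of group IIc, WRKY7, WRKY11 and WRKY17 of group IId, WRKY22 and WRKY65 of group IIe, and WRKY38, WRKY46 and WRKY63 of group III. They include some of the highest levels, such as WRKY65 with 1376 to 2307 normalised counts over the 18 libraries and WRKY51 with 648 to 832. They also include very low genes: WRKY38 and WRKY63 did not exceed 9.98 and 11.4 normalised counts, where a difference was not detectable at this depth unless it was large. WRKY11 and WRKY17, calmodulin-binding repressors of basal resistance, lay at 592 to 849 and 1047 to 1793.

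Some members had similar profiles over the 18 libraries, given here as Pearson's r of log2 values, a description in which the libraries share genotype, medium and depth. WRKY61 and WRKY72 had an r of 0.94, WRKY27 and WRKY60 of 0.90 and WRKY6 and WRKY25 of 0.92. WRKY55 was most like WRKY25 (0.92), WRKY8 (0.92) and WRKY50 (0.89). The lowest value was -0.85, for WRKY43 with WRKY69, and WRKY50 with WRKY61 had -0.83. The profiles of WRKY55, WRKY8 and WRKY50 all include the high value of *lpcat* control replicate 2.

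Genes around the WRKY factors were read from 3 further lists. WRKY factors are phosphorylated by MAP kinases and bound by VQ proteins, and of 15 such genes 1 was called, in 1 of 11 comparisons. MKS1, a VQ protein and substrate of MAP kinase MPK4, was higher by 0.56 in *lpcat* on lysoPAF with ONO against *lpcat* control (adjusted p = 0.048, limma). In that comparison 4.39% of all genes were higher. Of 14 tested genes of salicylic acid synthesis and signalling, 0 to 2 were called in a comparison. Over all genes, the shares called per direction ran from 0.53% to 6.56% in the pairwise comparisons. CBP60G, an activator of ICS1, was higher with ONO in WT, by 2.54 against lysoPAF (adjusted p = 0.00028, limma) and by 3.38 against control (5.9e-06), and by 1.82 in *lpcat* against control (0.0048). ICS1 itself was higher in WT on lysoPAF against control, by 0.58 (0.047). NPR3, a salicylic acid receptor gene, was higher in *lpcat* than in WT by 0.60 on lysoPAF (limma adjusted p = 0.0066) and by 0.50 with ONO (0.043). PR5, a marker of salicylic acid responses, was listed at 0 in each *lpcat* library with ONO, had 5.18, 0.949 and 16.2 normalised counts in *lpcat* control roots, and was at 0 in each WT library. It was called lower in *lpcat* with ONO against control (limma adjusted p = 0.016) and higher in *lpcat* control than in WT control (0.032), at these low levels. Without *lpcat* control replicate 2 the log2 differences of PR5 were -3.365 (limma adjusted p = 0.00025) and 3.365 (0.0011). That of CBP60G in *lpcat* with ONO against control was then 1.966 (limma adjusted p = 0.0012).

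The other list held 21 genes of pattern-triggered immunity. In *lpcat*, lysoPAF with ONO against lysoPAF gave 6 higher, beside 3.55% of all genes, and 0 lower, and in WT 3 higher, beside 3.72%, and 0 lower. CYP81F2, a cytochrome P450 of indole glucosinolate defence, was higher by 2.25 in *lpcat* (adjusted p = 1.7e-10, limma) and by 3.12 in WT (3.5e-13), and the step was smaller in *lpcat* by 0.87 (interaction, limma adjusted p = 0.013). MYB51, an activator of the same pathway, was higher by 1.15 in *lpcat* (3.3e-05) and 0.70 in WT (0.0032), and FRK1, a receptor-like kinase gene used as a marker of flagellin responses, by 2.91 in WT (0.0066). Against control medium 9 were higher in *lpcat* with ONO, beside 4.39% of all genes, and 6 in WT with ONO, beside 6.4%, with 0 lower in both.

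Between *lpcat* and WT, the pattern-triggered list gave 3 higher and 2 lower on lysoPAF (6.56% and 4.63% of all genes), 5 and 1 with ONO (2.13% and 1.14%) and 3 and 1 on control medium (2.24% and 0.53%). On lysoPAF the higher ones were NHL10 (2.28, limma adjusted p = 6e-04), a marker of early immune signalling, ZAT12 (2.21, 0.0029), a zinc-finger factor of oxidative stress, and RBOHD (0.48, 0.0047), the oxidase of the immune oxidative burst. The lower ones were PROPEP2 and ERF104. The lysoPAF step alone called 2 higher and 0 lower in *lpcat*, beside 1.94% and 1.57% of all genes, and 2 and 0 in WT, beside 1.58% and 0.901%. When *lpcat* control replicate 2 was left out it called 6 and 2 in *lpcat*, beside 8.86% and 9.8%, and 6 and 0 in WT, beside 4.05% and 2.79%. Among 23 tested WRKY genes outside the 42, 0 to 3 were called in a comparison, beside 0.53% to 6.56% of all genes per direction in the pairwise comparisons.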

How the data were processed

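RNA from roots of *lpcat* and WT seedlings was sequenced in 18 libraries, with 3 libraries in each of the 6 combinations of genotype and medium that the sample labels give. According to the submitters' processing notes, the authors used STAR 2.4.0j, StringTie 1.0.3, HTSeq 0.6.0, DESeq2 1.12.4 and the TAIR10 build. The deposited signal of each gene is a normalised count, which the authors made by dividing read counts by a size factor per library. Reads were recovered from the steps between values (0.609 to 1.24 per read), and 400470 of 400470 values above 0, 100%, came out whole within 0.001. Libraries held 8681898 to 16767002 reads, median 10316716.5, and genes with few reads have wide errors at this depth.

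Rows with 5 or more reads in the 18 libraries together (23760) went into limma 3.58.1 (R 4.3.3) on log2(normalised count + 1) with a variance trend and 1 coefficient per group, Benjamini-Hochberg adjusted over all rows. SE are limma's, and 95% intervals were drawn from them with normal quantiles, which are slightly narrower than those of limma's test. In simulated data with known folds, most genes changed by 4 or 0.25 were recovered, which the run required in order to go on. Many called members changed by less than 2-fold, and this recovery does not speak for them. Folds of 2 and 0.5 were simulated too, and their recovery is not given here. Genes with low means were not changed in the simulation, so it does not cover the lowest members. Alternatives were edgeR 4.0.16 and DESeq2 1.42.0 on recovered reads, a pseudocount of 5, other read filters, the compared libraries alone, a replicate block and leaving out each library. Where a member has calls in a comparison, up to 6 in each direction by adjusted p were described with their values, with their paralogues beside them. Lengths, gene order and promoters came from RefSeq TAIR10.1, since the files give no coordinates. 8 members (WRKY1, WRKY4, WRKY29, WRKY40, WRKY41, WRKY53, WRKY61 and WRKY69) overlap another annotated gene there, and the strand setting of the counting is not given in the sources used here. Members and lists were chosen with earlier results of these data known.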

Additional observations from a re-analysis of the deposited data

Results flagged for a closer look

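The ONO step on lysoPAF differed between genotypes for WRKY60, where the interaction of genotype and ONO passed the test: the log2 step was 0.01 in *lpcat* and -0.67 in WT, a signed difference of 0.68 (limma adjusted p = 0.049). The adjusted p over the alternatives and the fits without 1 library ran up to 0.141, and the cause was not tested.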

How the results depend on the processing

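No member call reversed its direction under any alternative run. Of the 70 calls, 67 held in DESeq2, 65 in edgeR, 64 with a pseudocount of 5, 58 with no filter on reads, 70 with the filter of edgeR, 68 with the replicate block and 36 when only the compared libraries were fitted. Fitted alone, the number of members called was 7 in place of 3 between *lpcat* and WT with ONO, 17 in place of 10 on lysoPAF, 0 in place of 4 on control medium, 0 in place of 10 for the lysoPAF step in *lpcat*, 2 in place of 15 for *lpcat* with ONO against control, and 4 in place of 1 for the ONO interaction. These fits hold fewer samples. Of those named, the fits with more calls do not hold *lpcat* control replicate 2 and those with fewer calls do, and the cause was not tested. No share over all genes was counted for these fits, nor with other read filters, a pseudocount of 5 or the replicate block. Those numbers have no background beside them. DESeq2 called 5 members between *lpcat* and WT with ONO (3.12% of all genes with an adjusted p higher and 2.56% lower). It called 7 on control medium (4.38% and 0.831%), 5 in the lysoPAF interaction (0.893% in either direction) and 2 in the ONO interaction (4.19%). With no filter on reads 5 members were called for the lysoPAF step in *lpcat* and 0 in the ONO interaction, where a pseudocount of 5 also gave 0.

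Leaving out 1 library at a time, the members called numbered 1 to 17, 7 to 18 and 3 to 6 between *lpcat* and WT (with ONO, on lysoPAF, on control medium), 0 to 23 and 3 to 11 for the lysoPAF step in *lpcat* and WT, 2 to 6 and 3 to 6 for the ONO step, 9 to 25 and 7 to 15 for lysoPAF with ONO against control, and 0 to 16 and 0 to 4 for the lysoPAF and ONO interactions. The highest numbers mostly came without *lpcat* control replicate 2, an alternative whose list counts were added after seeing the data. Of these fits, shares over all genes were counted only without that library, so the ranges have no background beside them. Of 45 same-numbered pairs of libraries 16 had deviations correlated above 0.1 (r from -0.20 to 0.30, median 0.06, 15035 genes). Pairs with different numbers were not compared, so these values cannot decide whether replicate numbers pair the samples. With the replicate block, in the same order of comparisons, 4, 11, 4, 12, 5, 6, 4, 15, 11, 0 and 1 members were called. Depth limits the lowest members, such as WRKY38, WRKY50 and WRKY63.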
